A study of Mus musculus with 2 samples.

Results

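The genes described here shape curved membranes at the surface of heart muscle and other cells. They are the caveolins Cav1, Cav2 and Cav3 and the cavins Cavin1, Cavin2, Cavin3 and Cavin4. With them are the EH-domain ATPase Ehd2, the F-BAR protein gene Pacsin3 and the N-BAR protein gene Bin1. These genes were chosen as a list of symbols, 10 genes of 55536 annotated, and all 10 were found by symbol and identifier. Total RNA was measured in heart tissue of female B6CASTF1/J mice at an age of 10 days, in 2 libraries made from 300 ng of RNA each. B6CASTF1/J is, per its name, the first-generation hybrid of C57BL/6J and the wild-derived CAST/EiJ. The labels name no treatment, and the libraries form 1 group, biological replicates 1 and 2. They come from separately numbered females, although both cite the same donor record, and are called hearts here. The SD (n = 2) therefore measures the spread between these 2 libraries, and p-values set their difference against counting error only. Neither compares conditions.

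Caveolae are small flask-shaped pits of the plasma membrane that buffer stretch, take up lipids and gather signalling proteins. Caveolins insert into the inner leaflet and need the cavins, a coat of coiled-coil proteins, to bend it, while EHD2 forms a ring at the neck and PACSIN proteins bend membrane through their F-BAR domains. In heart muscle cells the transverse tubules (T-tubules), inward folds of the surface that carry the action potential to the calcium release sites, are built in the weeks after birth, and BIN1, CAV3 and CAVIN4 take part in forming and keeping them. Caveolae are also dense in endothelial cells and fat cells.

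Both libraries carried the defining RNAs of the labelled tissue, with all 6 heart muscle markers detected at a summed 17252 TPM in replicate 1 and 18762 TPM in replicate 2. TPM is a relative abundance corrected for length, and a gene was counted as detected at 1 TPM or more in both libraries. Marker RNAs of some other cells and of the atrium differed between the libraries. All 5 red cell markers (summed 5269 and 12984 TPM in replicates 1 and 2) and the atrial marker Bmp10 (9.35 and 20.17 TPM) were called higher in replicate 2. The other atrial markers were also higher there but under 2-fold, among them Nppa (1.89-fold), Myl4 (1.86-fold) and Myl7 (1.76-fold). Of the 8 fat cell markers, 5 were called higher in replicate 1, among them Ucp1 (44.5 and 6.85 TPM) and Adipoq (5.19 and 1.12 TPM). All 8 endothelial, 7 fibroblast and 8 mural cell markers were detected and none of them was called between the hearts. All 5 lung markers stayed under 1 TPM, and of the 8 skeletal muscle markers the 2 detected were Ckm and Acta1, which heart muscle also expresses.

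All 10 genes were detected in both hearts, and their levels spanned more than an order of magnitude (the plot of levels by gene). By mean RSEM TPM the order was Cav1, Cavin1, Ehd2, Cavin2, Cav3, Pacsin3, Cavin4, Cav2, Cavin3 and Bin1. Cav1 held rank 293 and Bin1 rank 7573.5 (tied ranks averaged) among the 11731 detected protein-coding genes, whose median was 10.9 TPM. Cav1, Cavin1, Ehd2 and Cavin2 were the 4 within the first 1000, and Bin1 was the 1 gene below that median. Neighbours in this order were read as apart when their log2 ratio of TPM + 0.1 had 1 sign in both hearts and its mean exceeded 3 SD, since 2 libraries allow no exact p under 0.5. Of the 9 neighbouring pairs, 7 were apart. Ehd2 and Cavin2 (log2 ratio 0.16 ± 0.07, SD, n = 2) and Cavin4 and Cav2 (0.46 ± 0.16) fell short of 3 SD. In both pairs the first gene was the higher in both hearts. Kallisto, the second quantification deposited by the authors, gave levels 1.03 to 1.51 times those of RSEM for these genes and the same order except that Cavin2 stood above Ehd2, apart by the same rule (log2 Ehd2/Cavin2 -0.086 ± 0.024). By kallisto Pacsin3 and Cavin4 no longer stood apart (log2 0.32 ± 0.13, against 0.21 ± 0.07 by RSEM).

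**Figure D1:**
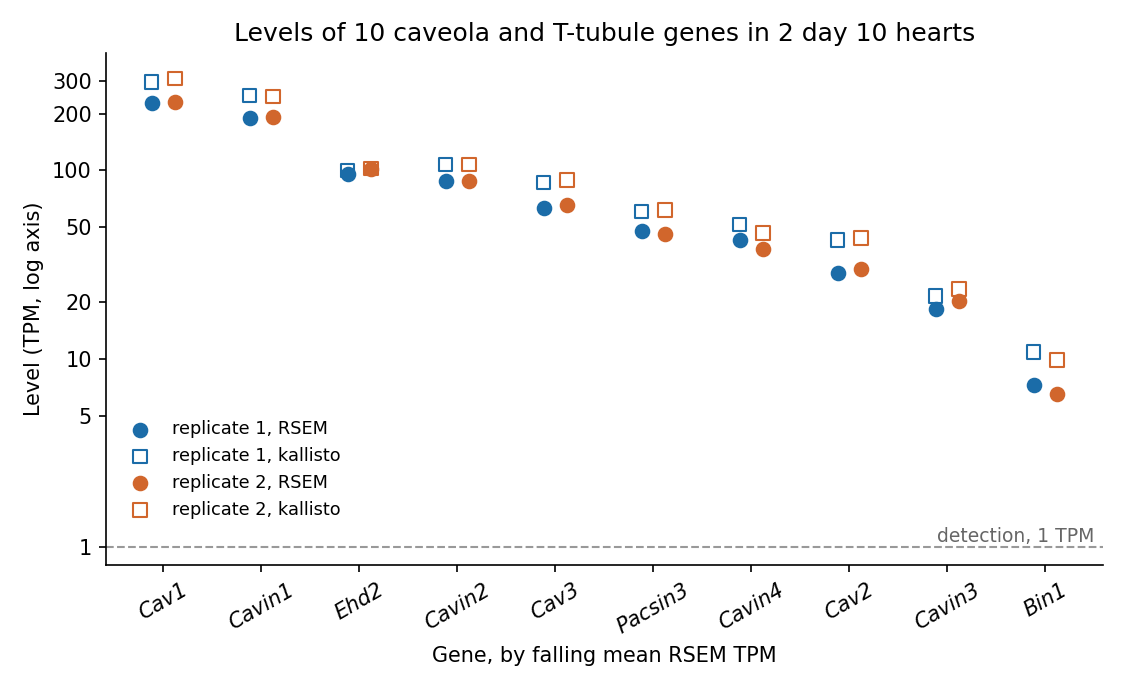
Level in TPM (log axis) of the 10 genes in replicate 1 (blue) and replicate 2 (orange), by RSEM (filled circles) and kallisto (open squares), with the 1 TPM detection level as a dashed line. The points of the 2 hearts lie close together for every gene, from 227 and 232 TPM for Cav1 down to 7.25 and 6.48 TPM for Bin1 by RSEM.

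Cav1, the main caveolin of endothelial, fat and smooth muscle cells, was the most abundant of the 10 genes (chromosome 6, 17306335 to 17341452, plus strand, mm10). Its level was 227 TPM in replicate 1 and 232 TPM in replicate 2, or 229 ± 3.48 TPM (SD, n = 2), from 14866 and 14611 expected counts. Cav3, the muscle caveolin (chromosome 6, 112459505 to 112472872, plus strand), had 63.2 and 65.5 TPM. Cav2, which is known to need Cav1 for its transport to the surface (chromosome 6, 17281185 to 17289115, plus strand), had 28.6 and 30.1 TPM. The 3 genes kept their order without overlap in both hearts. Of the summed caveolin RNA, which came to 319 and 327 TPM, Cav1 made up 71.2% and 70.8%, Cav3 19.8% and 20.02%, and Cav2 8.98% and 9.19%. Per length, Cav1 was thus 3.56-fold above Cav3 (log2 Cav3/Cav1 -1.83 ± 0.01) and 7.79-fold above Cav2 (log2 Cav2/Cav1 -2.96 ± 0.03), and Cav3 was 2.19-fold above Cav2 (log2 1.13 ± 0.02). In counts not divided by length, Cav3 had fewer than Cav2 in both hearts (2094 and 2128 against 2203 and 2266).

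In bulk tissue, a level cannot tell fewer cells of a type from less RNA per cell. The endothelial markers Cdh5, a junction cadherin (132 and 130 TPM), Egfl7, a secreted vascular protein (131 and 116 TPM), and Pecam1, a platelet and endothelial adhesion molecule (86.1 and 89.8 TPM), summed with the other 5 of their list to 571 TPM in replicate 1 and 560 TPM in replicate 2. Their part in the levels of Cav1 and the cavins was not tested.

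The caveolin signature, a short stretch of 24 coding bases that marks the family, was located by amino acids that the 3 caveolins share. Its likeness between the genes is thus partly set by that choice and does not measure how close the whole genes are. The signature is given with 12 coding bases on each side from the GENCODE M21 transcripts, plus strand of chromosome 6, with its codons in capitals. An intron interrupts these bases in each gene, and the genomic spans are chr6:17308040-17339154 in Cav1, chr6:17281505-17281936 in Cav2 and chr6:112459920-112472178 in Cav3.
Cav1 signature: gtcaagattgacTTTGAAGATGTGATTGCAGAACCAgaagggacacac
Cav2 signature: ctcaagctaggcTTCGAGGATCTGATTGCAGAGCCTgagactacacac
Cav3 signature: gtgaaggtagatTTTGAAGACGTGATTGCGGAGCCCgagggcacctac
Cav1 and Cav3 shared 20 of these 24 bases, Cav1 and Cav2 19, and Cav3 and Cav2 18. Over the last coding exon, set side by side without gaps, Cav1 and Cav3 shared 237 of 339 bases (69.9%). Whether reads could be shared between genes was looked at across whole transcripts. None of the 45 pairs among the 10 genes shared a run of 31 bases. Cav2 lies 17.2 kb upstream of Cav1 on the same strand, and the antisense gene Gm15581 that spans both had 0 expected counts in both libraries.

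Annotated Cav1 transcripts begin in 2 regions, 625 nt apart at their nearest 5′ ends, and these differ in the protein they can start. The nearest downstream end is that of Cav1-206, a transcript of 323 nt. It held 1.49% and 0.80% of Cav1 TPM by RSEM in replicates 1 and 2 and 0 by kallisto. Cav1-203 and Cav1-202 begin farther downstream, at 17307278 and 17307640. The 6 transcripts with the upstream start (5′ ends between 17306335 and 17306423) include Cav1-201, which carries the full alpha coding region of 534 nt. The 4 with the downstream start (17307048 to 17307723) include Cav1-202 and Cav1-203, whose beta coding region of 441 nt begins at a later start codon in the same frame. The first coding bases of Cav1-201 show the 93 nt that only the alpha form has, with both start codons in capitals (plus strand, chr6:17306450-17307949, joined across an intron).
Cav1 alpha: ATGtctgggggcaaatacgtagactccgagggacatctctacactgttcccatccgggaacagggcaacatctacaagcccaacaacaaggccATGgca
By RSEM, transcripts with the upstream start held 70.6% of Cav1 TPM in replicate 1 and 69.4% in replicate 2. By kallisto they held 51.8% and 47.2% (the plot of Cav1 starts). The hearts were close within each method (70.0 ± 0.82% by RSEM and 49.5 ± 3.25% by kallisto), and the methods did not overlap. Cav1-201 was the leading transcript by both, with 63.6% and 62.2% by RSEM and 45.4% and 40.9% by kallisto. Reads that fit several forms are shared between them by each tool, so the split is an estimate, and which reads drive it was not tested.

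**Figure D2:**
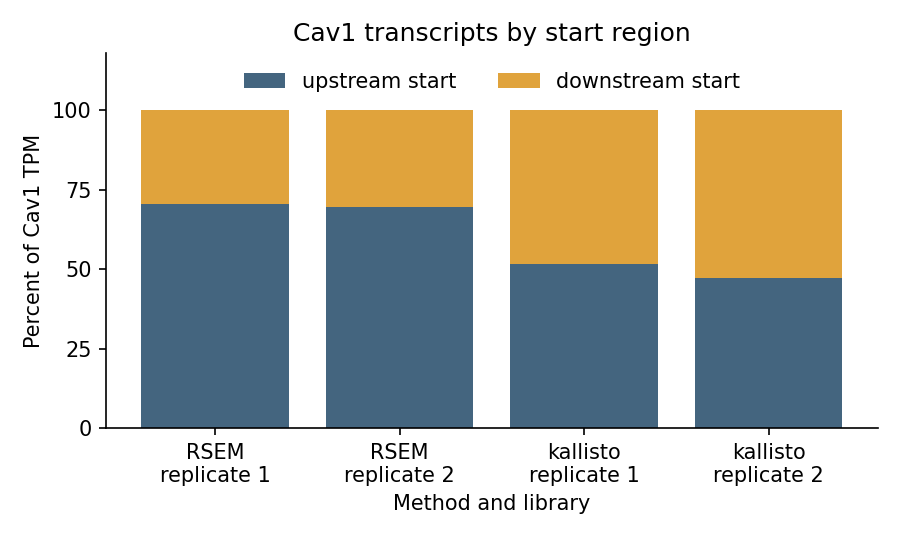
Percent of Cav1 TPM in transcripts with the upstream (blue) and the downstream (yellow) start, by method and library, each bar summing to 100%. The upstream share is 70.6% and 69.4% by RSEM and 51.8% and 47.2% by kallisto in replicates 1 and 2.

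Cavin1, the cavin that all caveolae need (chromosome 11, 100956733 to 100970887, minus strand), followed Cav1 with 190.02 TPM in replicate 1 and 191 TPM in replicate 2. Cavin2, which helps to set the size of caveolae (chromosome 1, 51289126 to 51302960, plus strand), had 88.1 and 87.95 TPM. Cavin4, the cavin of heart and skeletal muscle (chromosome 4, 48663514 to 48673502, plus strand), had 42.75 and 38.3 TPM. Cavin3, also known as a binding protein of protein kinase C delta (chromosome 7, 105480083 to 105482300, minus strand), had 18.3 and 20.15 TPM. These 4 genes also kept their order without overlap, and their sum of 339 and 338 TPM was close to that of the caveolins.

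Cavin1 made up 56.02% and 56.7% of cavin TPM, Cavin2 26.0% in both hearts, Cavin4 12.6% and 11.3%, and Cavin3 5.40% and 5.97%. Cavin1 was 4.70-fold above Cavin4 (log2 Cavin4/Cavin1 -2.23 ± 0.12), 2.16-fold above Cavin2 and 9.87-fold above Cavin3. The muscle form was thus the third of 4 among the cavins and the second of 3 among the caveolins. Between the muscle forms, Cavin4 was below Cav3 (log2 Cavin4/Cav3 -0.67 ± 0.15), and between the broad forms, Cavin1 was below Cav1 (-0.27 ± 0.02), in both hearts. These last 2 ratios compare levels per length: in counts not divided by length, Cavin4 (2617 and 2297) exceeded Cav3 and Cavin1 (19957 and 19577) exceeded Cav1.

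The region upstream of a start is shown for Cav1, at the upstream of its 2 start regions, and for Cav3 and Cavin4, the muscle forms. RefSeq windows (GRCm38.p6, the sequence of mm10) were matched for 8 of the 10 genes, giving 11 windows, and 250 bases before the start were searched on both strands. The E-box (CANNTG) is the letter pattern that basic helix-loop-helix factors read, and the TATA box (TATAAA) marks some promoters; matches to either are in capitals, and no match of one overlaps another. The windows lie at chr6:17306085-17306334, chr6:112459255-112459504 and chr4:48663264-48663513, all on the plus strand.
Cav1 upstream: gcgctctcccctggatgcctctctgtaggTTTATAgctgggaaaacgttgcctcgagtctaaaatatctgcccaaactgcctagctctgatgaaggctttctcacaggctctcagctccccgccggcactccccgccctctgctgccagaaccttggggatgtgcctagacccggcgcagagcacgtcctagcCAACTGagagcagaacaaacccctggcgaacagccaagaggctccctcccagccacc
Cav3 upstream: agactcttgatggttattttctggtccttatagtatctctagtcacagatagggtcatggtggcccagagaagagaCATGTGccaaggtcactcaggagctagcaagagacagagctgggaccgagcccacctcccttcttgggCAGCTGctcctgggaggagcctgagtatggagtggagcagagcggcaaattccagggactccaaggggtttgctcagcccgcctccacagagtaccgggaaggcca
Cavin4 upstream: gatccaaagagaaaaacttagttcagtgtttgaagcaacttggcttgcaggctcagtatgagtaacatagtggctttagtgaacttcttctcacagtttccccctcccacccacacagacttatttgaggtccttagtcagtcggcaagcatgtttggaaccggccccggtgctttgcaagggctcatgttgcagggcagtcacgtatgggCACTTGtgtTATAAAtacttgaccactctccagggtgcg
The Cav1 window shown held 1 E-box, 51 bases before the start, and a TATA box on the other strand 215 bases before it. Another Cav1 window lies in the downstream start region (chr6:17307390-17307639). It held 1 E-box, 152 bases before its start, and no TATA box. The Cav3 window held E-boxes 168 and 100 bases before the start. The Cavin4 window held an E-box 33 bases and a TATA box 24 bases before the start. Of 32817 windows of the same length, 66.2% held an E-box and 12.4% a TATA box, and 8 and 2 of the 11 windows did, so the E-boxes are common letters. The 2 windows of Cavin1 overlap almost wholly. Other motifs were also searched. The GC box (GGGCGG) matched 7 of them, in Cav1, Cav2, Cavin1, Ehd2 and Pacsin3, beside 32.7% of all windows, and the MCAT motif (CATTCC) matched 3, in Cavin1 and Pacsin3, beside 12.6%. The CArG box, the MEF2 site and the GATA motif (AGATAA) matched 0 of the 11, beside 1.47%, 2.92% and 9.99% of all windows. The windows shown had 10 CpG in Cav1, 4 in Cav3 and 5 in Cavin4, beside a median of 6.

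Ehd2, the ATPase of the caveolar neck (chromosome 7, 15946958 to 15967567, minus strand), had 95.2 TPM in replicate 1 and 102 TPM in replicate 2. It was not the most abundant of its family. Ehd4, an endosomal relative, had 217 and 206 TPM, 2.14-fold above Ehd2 (log2 Ehd2/Ehd4 -1.10 ± 0.12). Ehd1, which recycles endosomes, had 52.0 and 66.1 TPM (log2 Ehd2/Ehd1 0.75 ± 0.17). Ehd3, which also serves endosome recycling, had 1.34 and 1.65 TPM, and Ehd2 was 62.1-fold above it (log2 5.96 ± 0.13, and 5.32 ± 0.06 with a pseudocount of 1 TPM). Within Ehd2, RSEM gave the short transcript Ehd2-202 (375 nt) 12.95% and 15.7% of the TPM from 107 and 135 expected counts, while kallisto listed it at 0 in both. With Ehd2-201 alone the log2 ratio of Ehd2 to Cavin2 was -0.06.

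Pacsin3, the muscle-rich F-BAR gene (chromosome 2, 91255954 to 91264679, plus strand), had 47.8 TPM in replicate 1 and 45.8 TPM in replicate 2. Pacsin2, the broad form that also shapes caveolae, was above it with 67.6 and 66.4 TPM (log2 Pacsin3/Pacsin2 -0.52 ± 0.03). Pacsin1, the neuronal form, was under the detection level at 0.08 and 0.06 TPM from 5 counts in each library. Pacsin3 has 15 annotated transcripts, and the 4 with the same full coding region of 1272 nt together held 79.5% and 80.4% of its TPM by RSEM and 77.6% and 74.3% by kallisto.

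Bin1, the N-BAR protein gene that bends T-tubule membrane (chromosome 18, 32377230 to 32435737, plus strand), was the lowest of the 10. It had 7.25 TPM in replicate 1 and 6.48 TPM in replicate 2, or 6.87 ± 0.54 TPM, from 428 and 376 expected counts. By kallisto it had 10.9 and 9.83 TPM. Amph, its neuronal relative amphiphysin, had 0.44 and 0.40 TPM, and Bin2, its relative in blood cells, had 0.55 and 0.76 TPM. Both were under the detection level, so the size of their ratios to Bin1 depended on the pseudocount. The log2 ratio of Bin1 to Amph was 3.74 ± 0.03 with 0.1 TPM added and 2.47 ± 0.07 with 1 TPM, and that of Bin1 to Bin2 was 3.22 ± 0.40 and 2.25 ± 0.23. Bin3, a broadly expressed relative, had 4.81 and 5.12 TPM, which was not apart from Bin1 (log2 Bin1/Bin3 0.46 ± 0.18), and by kallisto Bin3 was the higher (-0.48 ± 0.09).

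Bin1 has 6 annotated transcripts, and 4 of them carry the full-length coding region, with 11 internal exons in common and 6 that differ (the map of Bin1 exons). Bin1-205, which has 13 exons and none of the 6 alternative ones, led by both methods in both hearts. It held 55.7% and 44.0% of Bin1 TPM by RSEM and 36.1% and 40.5% by kallisto. Bin1-202, with 15 exons, held 35.97% and 38.1% by RSEM and 30.2% and 21.1% by kallisto. The authors' deposited interval bounds overlapped in each heart: 2.69 to 4.95 TPM for Bin1-205 and 1.56 to 3.52 TPM for Bin1-202 in replicate 1, and 1.61 to 3.83 TPM and 1.34 to 3.403 TPM in replicate 2. The order of these transcripts was thus within their intervals in either heart.

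Among full-length Bin1 transcripts, those with the alternative exon of 129 nt (32426224 to 32426352) held 37.7% and 42.7% of the TPM by RSEM and 36.3% and 28.4% by kallisto. Those with the exon of 72 nt (32431671 to 32431742) held 41.6% and 53.0% by RSEM and 56.7% and 49.2% by kallisto. The other 4 alternative exons, of 93, 108, 24 and 108 nt, occur together in Bin1-201, the longest form, which had 0% in replicate 1 and 1.98% in replicate 2 of full-length TPM by RSEM. The muscle form of BIN1 is known in human for a phosphoinositide-binding exon of 45 nt. Of the Bin1 exons annotated in GENCODE M21, 0 have that length, so the tables give no value for it.

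**Figure D3:**
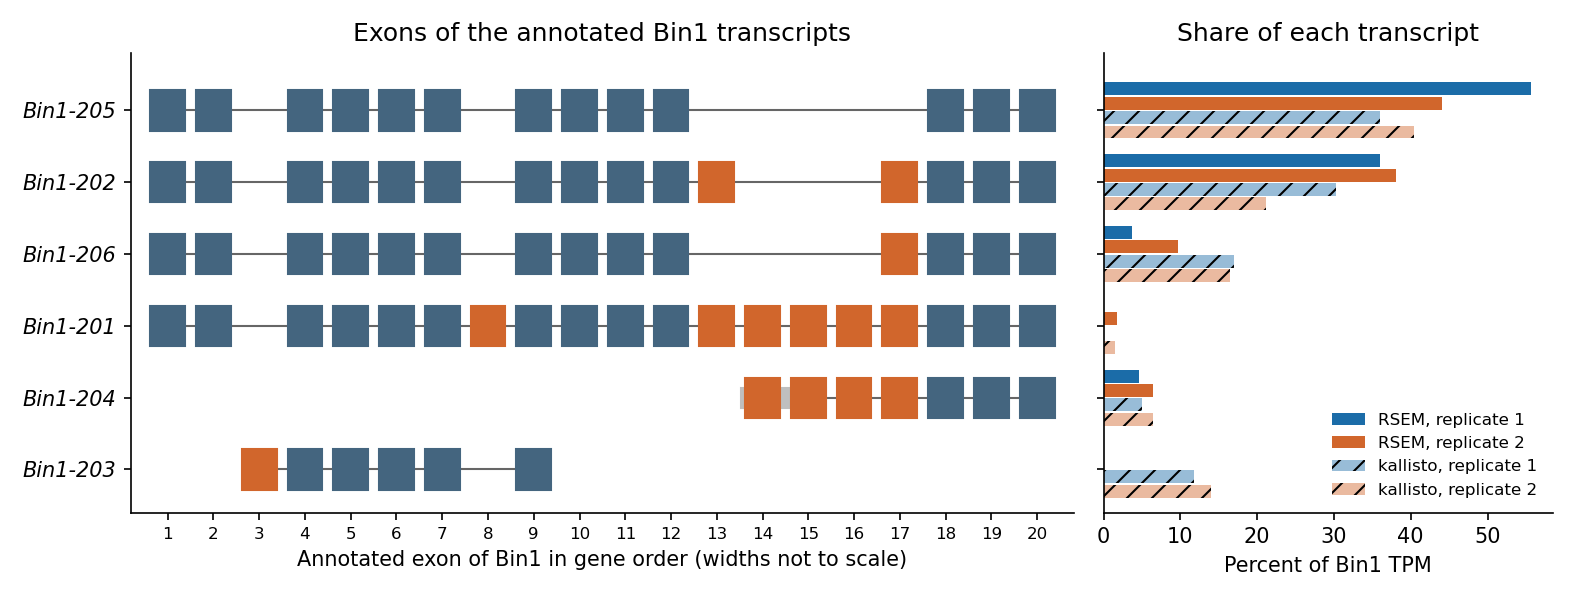
Left, the 20 annotated Bin1 exons in gene order (not to scale) in each of 6 transcripts, with exons absent from some full-length forms or found in a partial form alone in orange and a retained intron in grey. Right, the percent of Bin1 TPM in each transcript by RSEM (plain) and kallisto (hatched) in replicate 1 (blue) and replicate 2 (orange), led by Bin1-205 at 55.7% and 44.0% by RSEM.

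Of 17 pairs of related genes compared within each heart, 16 were apart by the rule above, 6 with the first gene higher and 10 with it lower, and Bin1/Bin3 was not (the plot of related genes). By kallisto all 17 were apart. Among the relatives of the caveola genes, Ehd4 stood above Ehd2 and Pacsin2 above Pacsin3, while Ehd1, Ehd3 and Pacsin1 stood below them.

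**Figure D4:**
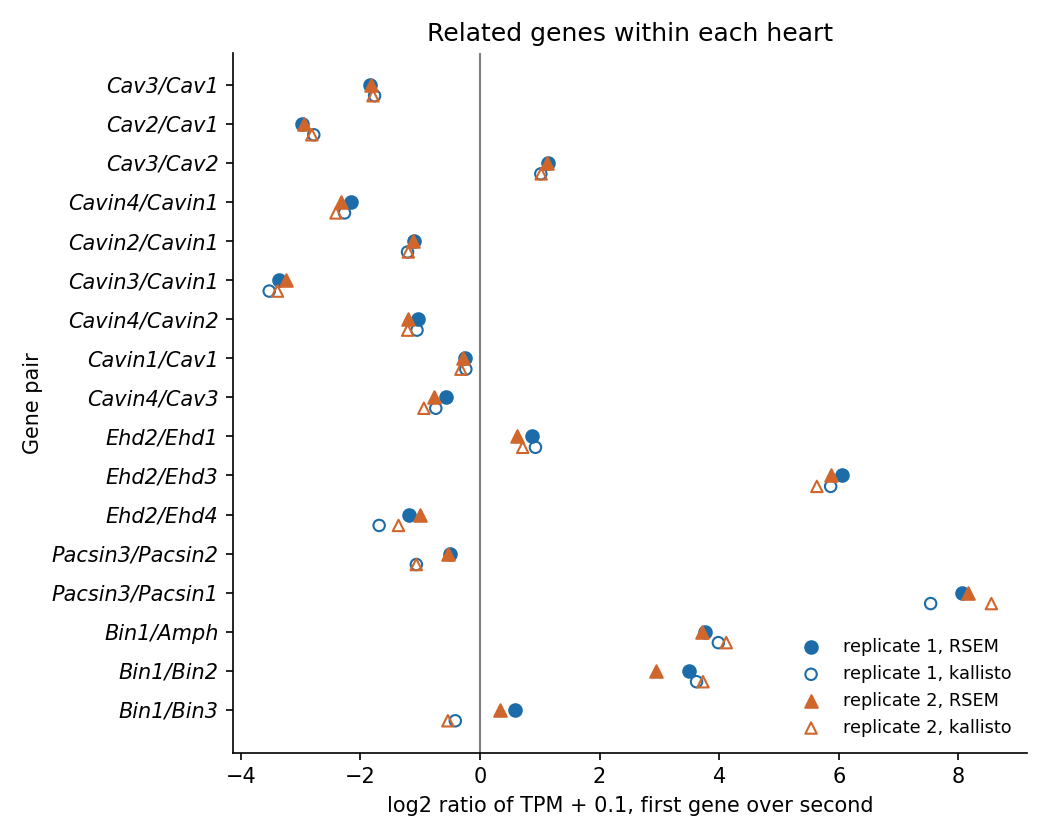
Log2 ratio of TPM + 0.1, first gene over second, for 17 pairs in replicate 1 (blue circles) and replicate 2 (orange triangles), by RSEM (filled) and kallisto (open), with 0 marked by a line. The points of both hearts lie on the same side of 0 in every pair within a method, and only Bin1/Bin3 changes side between methods.

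Other genes of caveolae, membrane bending, membrane repair and T-tubules were read from a list of 46, of which 42 were detected. The 5 most abundant were Cd36, the fatty acid translocase of caveola-rich membrane (628 TPM in replicate 1 and 645 TPM in replicate 2), Popdc2, a cAMP-binding membrane protein (291 and 246 TPM), Tcap, the titin cap (202 and 237 TPM), Ehd4, and Jph2, the junctophilin that ties T-tubules to the sarcoplasmic reticulum (152 and 157 TPM). All 5 had a mean above that of Ehd2. The 5 lowest detected were Was, a blood cell actin regulator (1.20 and 1.14 TPM), Ehd3, the dynamins Dnm3 (2.58 and 3.31 TPM) and Dnm1 (5.06 and 4.63 TPM), and Bin3. The 4 not detected were Pacsin1, Amph, Bin2 and Ano5. Dnm2, the broad dynamin, had 36.5 and 32.6 TPM and Mtm1, the phosphoinositide phosphatase myotubularin, had 7.43 and 7.84 TPM, beside 7.25 and 6.48 TPM of Bin1; all 3 genes are mutated in human centronuclear myopathies. The median of the list was 18.7 TPM.

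Between the 2 hearts the 10 genes differed little (the plot of differences between hearts). None was called, which took an adjusted p below 0.05 together with a ratio of 2-fold or more, where 1.31% of the 16517 genes tested were (exact conditional binomial test on expected counts, two-sided, Benjamini-Hochberg adjustment over all genes tested). With no fold minimum 2 of the 10 passed, beside 17.6% of all genes tested and 24.8% of those with a mean of 5 TPM or more, so their count was near the background. At an unadjusted p under 0.05 there were 3. None was 1.5-fold apart, beside 8.05% of all genes tested and 2.36% of detected genes. The median log2 ratio of replicate 1 over replicate 2 was -0.01 over the 10 genes, 3 of them higher in replicate 1 and 7 in replicate 2. This split depended on the scaling of the libraries. Cav1, Cavin1 and Cavin2 had log2 ratios of -0.012, -0.009 and -0.006 with TMM factors. With library totals they had 0.005, 0.007 and 0.011. The median size of the log2 ratio was 0.06 over the 10 genes and 0.10 over all detected genes. The 10 genes had a median level of 55.5 and 55.6 TPM in replicates 1 and 2, against 10.9 TPM for detected protein-coding genes. Counting error is wider at lower counts, and genes of like level were not compared.

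The 2 genes past the adjusted p were Cavin4 and Ehd2. Cavin4 was 1.11-fold higher in replicate 1, with 2617 counts there and 2297 in replicate 2 (log2 ratio 0.15 ± 0.04, counting SE, exact binomial test adjusted p = 0.00261). Ehd2 was lower in replicate 1, with 13125 counts there and 13379 in replicate 2 (log2 ratio -0.06 ± 0.02, exact binomial test adjusted p = 0.00265). Bin1 had a log2 ratio of 0.15 ± 0.10, close in size to that of Cavin4, with an adjusted p of 0.373 from its lower counts (exact binomial test). Cavin3, at -0.15 ± 0.07, had an unadjusted p of 0.0312 and an adjusted p of 0.131 (exact binomial test). These tests cover counting error only, and amplified reads are not independent molecules.

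Among the fat cell markers, Plin1, a lipid droplet protein (9.67 and 1.27 TPM), Cidec (3.87 and 0.59 TPM) and Cfd (1.28 and 0.28 TPM) were called higher in replicate 1 with Ucp1 and Adipoq, and the log2 ratio was -0.01 ± 0.02 for Cav1 and -0.01 ± 0.01 for Cavin1. The part of fat cells in the levels of either gene was not tested. Fabp4, a fatty acid binding protein that endothelial cells also hold, had 445 and 476 TPM and was not called. All 6 heart muscle markers passed the adjusted p of the exact test with no call at 2-fold. Of these, 5 were lower in replicate 1, among them Myh6 (8417 and 9608 TPM), Tnnt2 (3021 and 3171 TPM) and Tnni3 (2559 and 2830 TPM), and Pln, the inhibitor of the calcium pump, was higher there (2067 and 1899.88 TPM, log2 ratio 0.10 ± 0.01). Beside them the muscle forms Cav3 and Cavin4 had log2 ratios of -0.06 ± 0.04 and 0.15 ± 0.04, and Bin1 had 0.15 ± 0.10. The atrial list summed to 516 TPM in replicate 1 and 953 TPM in replicate 2, and its part in these ratios was not tested.

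**Figure D5:**
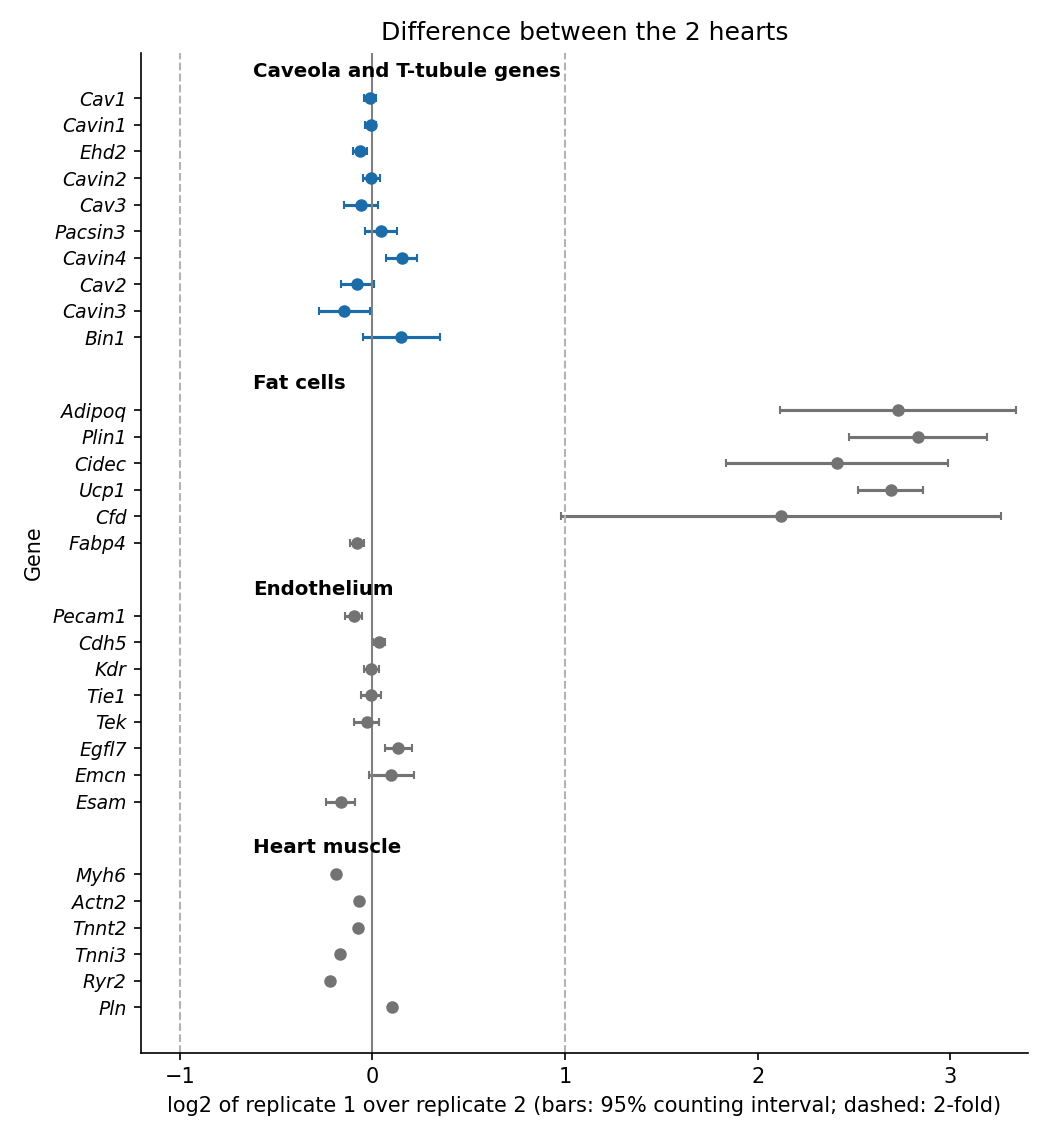
Log2 ratio of replicate 1 over replicate 2 for the 10 genes (blue) and for 6 of 8 fat cell markers and all endothelial and heart muscle markers (grey), with bars of 95% counting intervals, a line at 0 and dashed lines at 2-fold. The 10 genes lie within 1.11-fold of equal, while 5 fat cell markers lie beyond 2-fold.

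Among the 46 other genes, 44 were tested by the same exact test and fold rules. At 2-fold 0 were called, beside 1.31% of all genes tested, and 0 were 1.5-fold apart, beside 8.05%. With no fold minimum 17 passed the adjusted p, 9 higher in replicate 1 and 8 higher in replicate 2. Of all genes tested 17.6% passed, and of those with a mean of 5 TPM or more 24.8%. The widest ratio was that of Ror1, a receptor-type kinase known in human tumour cells as a scaffold for CAVIN1 and CAV1, with 9.69 TPM in replicate 1 and 6.50 TPM in replicate 2 (1.48-fold). Popdc2 was also higher in replicate 1 (log2 ratio 0.23 ± 0.02, exact binomial test adjusted p = 1.33e-46). Ehd1 was lower in replicate 1 (log2 ratio -0.29 ± 0.03, exact binomial test adjusted p = 4.5e-19), and so was Trim72, a muscle membrane repair gene also called MG53, with 64.1 and 79.6 TPM. Cacna1c, the T-tubule calcium channel, had 83.5 and 84.3 TPM and was also lower in replicate 1 by the test (log2 ratio -0.12 ± 0.02, exact binomial test adjusted p = 1.15e-09). Dysf, the dysferlin gene of membrane repair, had 54.3 and 50.6 TPM, but its counts of 6301 and 6567 gave a lower value in replicate 1 (log2 ratio -0.10 ± 0.03, exact binomial test adjusted p = 0.00156), so its direction depended on the scale.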

How the data were processed

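Values come from 2 total RNA libraries of heart tissue. Per the text with the files and the file headers, the authors quantified genes and transcripts on mm10 with GENCODE M21. The deposited gene and transcript tables hold expected counts, in which a read that fits several entries is shared, TPM, and each transcript's percent of its gene's TPM. A second deposited transcript table holds estimated counts and TPM. The column names are those that RSEM and kallisto write, and those names are used here; which tools and versions ran, and how reads were trimmed, is not given in the sources used here. Effective length was 99 nt below length in the RSEM tables and 333 and 329 nt below it in the kallisto tables of replicates 1 and 2 (medians over transcripts longer than 2000 nt). What part this has in the differences between methods was not tested. Reads were assigned to the C57BL/6J reference, and any loss of reads that carry CAST/EiJ alleles would touch both libraries. Whether such loss differs between genes or transcripts, and so bears on levels and shares within a library, was not tested.

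Annotated genes held 40184480 expected counts in replicate 1 and 39620519 in replicate 2. The 97 spike-in entries held 0.541% and 0.575% of all counts and 26248 entries with numeric identifiers 9.5e-06% and 7.33e-06%; neither entered library sizes or tests. Counts were rounded to whole numbers and scaled with TMM factors from edgeR 4.0.16 in R 4.3.3. Libraries were compared with a two-sided exact conditional binomial test (summed count of at least 20, prior count 0.5), Benjamini-Hochberg adjusted. The test was checked on simulated Poisson counts, which vary by counting error alone, so the check does not cover variation between animals. The edgeR quasi-likelihood test needs replicates in 2 groups and could not be fitted. DESeq2 1.42.0 size factors, library totals, kallisto values, CPM and other thresholds were alternatives. Tests ran in scipy 1.17.1 and tables in pandas 2.3.3 with numpy 2.4.6 (Python 3.11.15), and figures were drawn with matplotlib 3.10.9.

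The genes and lists were chosen with earlier results of these data known. The text names the 10 genes, those paired with them, the 5 highest and 5 lowest detected of the 46 partners with those called or paired, and markers from the 3 highest of each list and those called. Genes named outside this rule (Ror1, Trim72, Dysf, Cacna1c, Dnm2 and Mtm1, the undetected Ano5 and the marker Pln) were chosen after their values were seen.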

Additional observations from a re-analysis of the deposited data

How the results depend on the processing

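All 10 genes were detected in each library alone, by kallisto, over nuclear protein-coding genes alone and at 0.1 or 5 TPM, and none was called under any alternative with a fold minimum. With no fold minimum the count was 2 (Cavin4 and Ehd2), and both passed the adjusted p in all 6 settings of library size, count filter, prior and method (exact binomial test adjusted p 0.000569 to 0.0155 for Cavin4 and 0.00251 to 0.0405 for Ehd2). Of the values compared under the alternatives, 192 were the same by rule, 9 were reversed, 7 moved, 1 was stronger and 1 weaker. Many of the 192 could not have come out otherwise. With 2 libraries, either alone lies within 1 SD of their mean, and scaling a library by 1 constant leaves its shares unchanged. CPM of counts, not divided by length, turned Cav1/Cavin1 to -0.42 (Cavin1/Cav1 0.42), Cav3/Pacsin3 to -0.069, Pacsin3/Cavin4 to -0.15, Cav3/Cav2 to -0.082 and Cavin4/Cav3 to 0.22 (log2), and put Cav3 at 11.1% of caveolin and Cavin4 at 7.86% of cavin RNA. Kallisto turned Ehd2/Cavin2 to -0.086 and Bin1/Bin3 to -0.48, and gave 20.3% for Cav3, 38.3% for Bin1-205 and 49.5% for the upstream Cav1 start, which was 76.1% of expected counts. CPM put Ehd2 apart from Cavin2 (0.72), and by kallisto Pacsin3 and Cavin4 were not apart (0.32). With a pseudocount of 1 TPM, Ehd2/Ehd3 was 5.32, Pacsin3/Pacsin1 5.48, Bin1/Amph 2.47 and Bin1/Bin2 2.25. Ehd2-201 alone gave Ehd2/Cavin2 -0.061. The Cav1 start shares and the Ehd2-201 value were chosen after seeing the data. The causes were not tested, except that CPM lacks the length term by construction. Leaving out 1 library gave ranges of 19.8 to 20.02% for Cav3, 11.3 to 12.6% for Cavin4, 44.0 to 55.7% for Bin1-205 and 69.4 to 70.6% for the upstream Cav1 start. No paired analysis was possible because there is 1 group. Depth limits Bin1 most, whose 428 and 376 counts are split over 6 transcripts.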

Other observations

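The leading transcript was the same by both methods in both hearts for 9 of the 10 genes, 4 of which (Cav3, Cavin2, Cavin3 and Cavin4) have 1 annotated transcript. Pacsin3 was the exception. RSEM put 54.65% and 49.4% of its TPM in Pacsin3-201 in replicates 1 and 2 and 4.54% and 16.0% in Pacsin3-215, while kallisto put 3.41% and 2.105% in Pacsin3-201 and 37.2% and 38.8% in Pacsin3-215. These transcripts have the same start, coding length and number of exons (11) and differ by 3 nt in length (1862 and 1859 nt).

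Cav2-203, a transcript of 694 nt, held 4.18% and 5.69% of Cav2 TPM by RSEM in replicates 1 and 2 and 26.5% and 25.8% by kallisto, where Cav2-201 led with 70.6% and 72.2%. Bin1-203, a partial transcript of 539 nt, was listed at 0 by RSEM and at 11.8% and 13.95% of Bin1 TPM by kallisto, from 8.06 and 8.68 estimated counts.

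Other genes that overlap the 10 lie on the opposite strand and held few counts. Gm17281, which overlaps Pacsin3 by 42 nt, had 106 expected counts in replicate 1 and 165 in replicate 2, and 9330175M20Rik, Gm45667 and A830052D11Rik, which overlap Cavin2, Cavin3 and Bin1, had 8 or fewer in each library. Whether the counting used strand is not given in the sources used here.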
